A study of Mus musculus with 12 samples.

Results

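The genes described here were the integrin subunits and the numbered cadherins, the transmembrane receptors through which a fibroblast holds its matrix and its neighbors. Members were the protein-coding genes whose symbol was Itga followed by a number or letter, Itgb followed by a number, or Cdh followed by a number. This gave 46 of the 28995 genes in the tables, of which 16947 were protein-coding. The members were 17 integrin alpha subunits, 8 integrin beta subunits and 21 cadherins. Aldosterone was compared with vehicle, and spironolactone with vehicle, over 45 members, because Cdh20 was listed only in the table of aldosterone and spironolactone, with at most 1 read in a library.

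RNA was sequenced from primary fibroblasts of the hindlimb muscles of wild-type C57 BL/10 mice at postnatal day 3. Cells of each of 2 mice were pooled, plated again and exposed for 48 hours to 1 µM aldosterone, to 1 µM spironolactone or to DMSO vehicle, with 4 libraries per treatment. Aldosterone is the natural agonist of the mineralocorticoid receptor, and spironolactone is a synthetic steroid lactone that antagonizes it. All groups were passage 2 cells in medium whose serum had been stripped of steroids with charcoal, and no group received both compounds. Each title carries 2 numbers, for the sample and for the biological replicate, each 1 or 2, so a library is called 1_1, 1_2, 2_1 or 2_2 here. The labels do not say which of these numbers stands for the mouse, so p-values measure the spread between plates of 2 mice.

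An integrin is a pair of 1 alpha and 1 beta subunit, and the alpha subunit largely sets which matrix protein the pair binds. Most alpha subunits of fibroblasts pair with the beta 1 subunit Itgb1, and the pair is coupled to actin inside the cell through talin, kindlin and other adaptors. Classical cadherins join like cadherins on neighboring cells in a calcium-dependent way and are tied to actin by catenins. Cadherin 11 is a known adhesion molecule of fibroblasts, and a shift in integrins or cadherins is part of how mesenchymal cells attach, migrate and build matrix.

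Each library held 19136923 to 30219185 reads on genes, with a median of 23833430. Fkbp5, Tsc22d3 and Per1, known steroid-responsive genes, were higher with aldosterone than with vehicle by 4.26, 2.69 and 1.83 on the log2 scale (adjusted p at most 3.34e-12). The fibroblast markers were the most abundant of the marker lists, with summed normalized counts of 675281 to 784954 in aldosterone and 803022 to 856486 in vehicle libraries. The leukocyte markers Ptprc, Adgre1 and Tyrobp, the endothelial markers Tie1 and Cldn5 and the myogenic factors Pax7, Myod1 and Myog averaged under 3 normalized counts in both groups. The 6 measured epithelial markers summed to at most 10.3 in any library. Other leukocyte, endothelial and myogenic markers were present, and so were mural and Schwann cell markers. The 6 mural markers came second among the lists, at sums of 7810 to 12503 with aldosterone and 10065 to 13572 with vehicle. Of these 6, 0 averaged under 10 and 0 were called, and 2 were called lower with the sample number as a block. The 10 endothelial markers summed to 802 to 816 and 638 to 683 in the same order. Of the 10, 5 averaged under 10 with aldosterone and 6 with vehicle, and Kdr rose from 45.1 to 168 (adjusted p = 0.00183). The 9 measured myogenic markers summed to 238 to 488 and 547 to 799. Of the 9, 5 averaged under 10 with aldosterone and 6 with vehicle, and Acta1 fell from 539 to 236 (adjusted p = 0.000994). The 10 leukocyte markers summed to 338 to 371 with aldosterone and 318 to 370 with vehicle, with 5 of the 10 averaging under 10. Cd14 of that list rose, from 53.5 ± 6.64 to 86.5 ± 6.96 (SD, n = 4 each, log2 difference 0.69, adjusted p = 0.013). The 6 Schwann cell markers summed to 380 to 505 and 272 to 370, and S100b among them was higher with aldosterone (log2 difference 0.50 ± 0.12, SE, adjusted p = 0.0141). The part of these markers in the members' values was not tested.

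Aldosterone was associated with different levels of 18 of the 45 members, against vehicle, at an adjusted p of at most 0.05, which is 40.0% of them. Among all 27319 genes of that table the same call was made for 10.4%. The 8 members that rose were Itga10, Cdh13, Itga4, Itga5, Cdh2, Itga3, Cdh17 and Itga8, and the 10 that fell were Cdh8, Itga2, Itga11, Cdh24, Cdh3, Cdh11, Itga1, Itgb3, Itga7 and Itgav. The share of all genes called was 5.68% for a rise and 4.74% for a fall. All 4 aldosterone libraries lay above all 4 vehicle libraries for 8 members and below them for 10, beside 7.55% and 6.9% of all genes. These 10 are not the same as the 10 that fell. They include Itgb4, which was not called (adjusted p = 0.176), and leave out Cdh3, whose groups overlapped. Members therefore moved in both directions, and the median log2 difference of the 45 was -0.13, beside -0.0064 over all genes. A difference of at least 1 on the log2 scale as well, the threshold of the study, held for 3 members that rose (Itga10, Cdh13 and Itga4) and 2 that fell (Cdh8 and Itga2), while 2.06% of all genes met both. Values are counts divided by a size factor of the library (normalized counts), and differences were taken on log2(value + 1), which understates those of low genes. In 34 of the 45 members the mean was at least 10 normalized counts, and of the other 11 only Cdh8 was called. Of those 34, 17 were called (50.0%), beside 17.7% of the 15245 genes with such a mean. In bulk RNA, fewer cells of a type and less RNA per cell cannot be told apart.

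**Figure D1:**
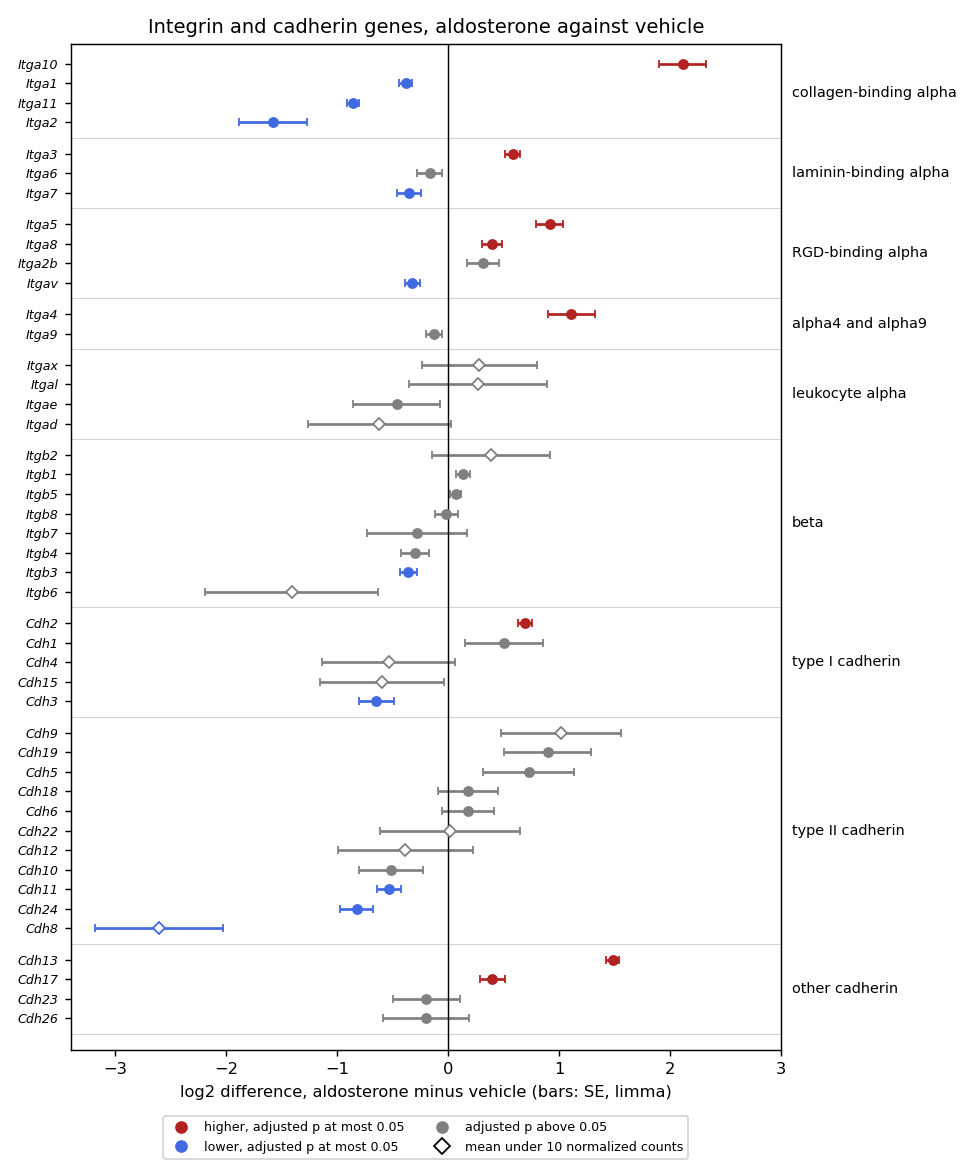
Log2 difference between aldosterone and vehicle (x axis, aldosterone minus vehicle) for the 45 members tested, grouped by role on the y axis, with bars for the SE of the limma fit. Red points rose and blue points fell at an adjusted p of at most 0.05, open diamonds averaged under 10 normalized counts, and the points run from -2.60 for Cdh8 to 2.11 for Itga10.

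The collagen-binding alpha subunits were the group in which every member differed. Of the 4, 1 rose and 3 fell, beside 5.68% and 4.74% of all genes. Itga10, which with Itgb1 forms a collagen receptor known from cartilage, rose. Its normalized counts were 987, 848, 1707 and 1754 in aldosterone libraries 1_1, 1_2, 2_1 and 2_2, and 221, 251, 342 and 375 in the vehicle libraries in the same order. The lowest aldosterone library lay above the highest vehicle library by a wide gap, and in both treatments the libraries of sample number 2 were the higher ones. The log2 difference was 2.11 ± 0.21 (SE, n = 4 per group, adjusted p = 3.02e-06), a 4.33-fold higher level. Itga10 lies at chr3:96552900-96571835 on the plus strand in the tables, whose build is mm39 per the submitters' processing notes.

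Itga2, the alpha subunit of another collagen receptor, moved the opposite way. It had normalized counts of 129, 124, 347 and 359 with aldosterone and 508, 469, 863 and 785 with vehicle. The groups did not overlap, and sample number 2 was again the higher one in both. The difference was -1.58 ± 0.30 on the log2 scale (adjusted p = 0.00227), or 2.98-fold lower, with -1.94 within sample number 1 and -1.22 within sample number 2. The call was lost on leaving out any 1 library except aldosterone 2_1 or 2_2, with an adjusted p of 0.0629 to 0.116 and differences of -1.72 to -1.32. These fits had no block, and with all libraries and the sample number as a block the adjusted p was 1.12e-13. The platelet list, whose cells carry Itga2 and Itga2b, summed to 11.6 to 15.4 with aldosterone and 37.8 to 57.9 with vehicle over its 3 measured markers, 2 of which averaged under 10. Its Ppbp fell by 1.74 on the log2 scale (adjusted p = 0.000502), and the part of these markers in the Itga2 value was not tested.

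Itga11, the major collagen receptor subunit of many fibroblasts, fell with little spread. The libraries held 1909, 1736, 2022 and 1940 normalized counts with aldosterone and 3441, 3549, 3360 and 3424 with vehicle, and the difference was -0.86 ± 0.057 (SE, adjusted p = 2.93e-08). The groups were far apart, and the sample numbers were alike. Itga1, which also binds collagen, fell by less, from 2182 to 2428 with vehicle to 1649 to 1841 with aldosterone (-0.38 ± 0.058, adjusted p = 0.000243). Its groups did not overlap either. Pelo lies inside the Itga1 locus on the same strand and averaged 162 reads against 2127 for Itga1, so reads of either could have been given to the other.

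The make-up of this group therefore differed between treatments. Per kilobase of gene length, Itga10 made up 6.04% ± 1.32 of the summed collagen-binding alpha level in vehicle and 33.0% ± 6.45 in aldosterone libraries (SD, n = 4 each). Itga11 made up 71.2% ± 3.21 and 49.9% ± 6.17. It stayed the most abundant of the 4 in the mean of each group, while Itga10 passed Itga1 and Itga2. The summed level of the 4 subunits per kilobase was 944 ± 27.1 in vehicle and 754 ± 131 in aldosterone libraries, with ranges that did not overlap. Spironolactone libraries had 7.01% ± 1.66 for Itga10 and 70.8% ± 4.22 for Itga11.

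**Figure D2:**
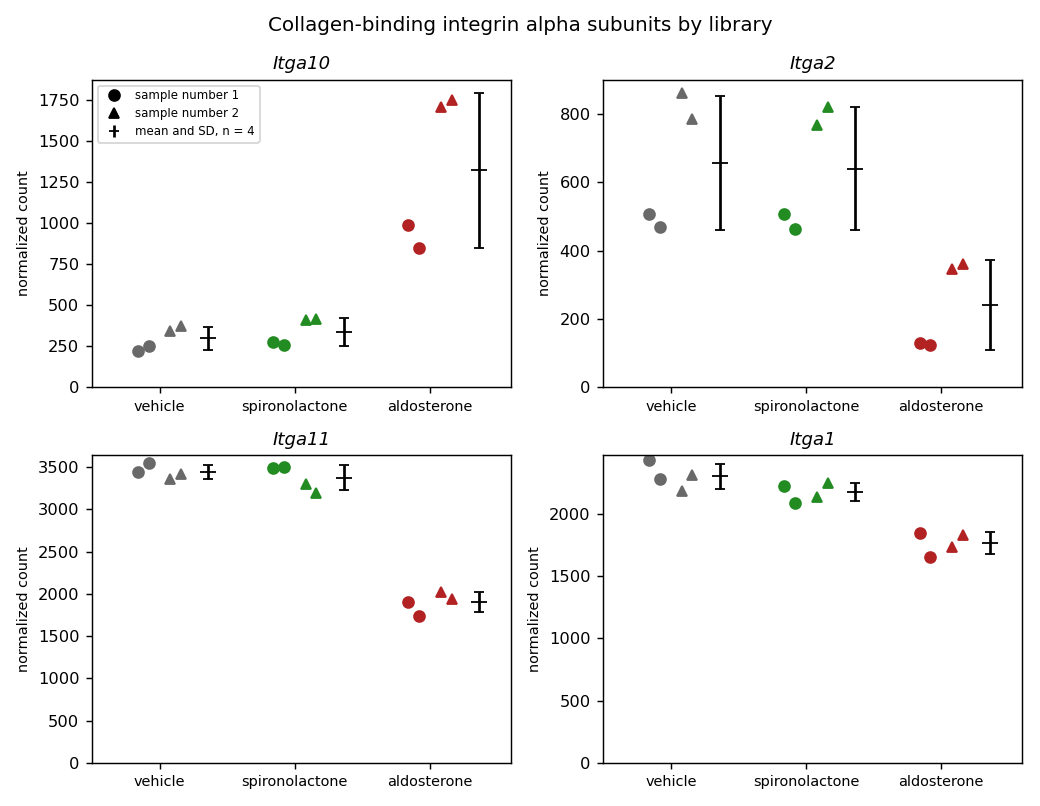
Normalized counts (y axis, from 0) of the 4 collagen-binding alpha subunits in each library by treatment, with circles for sample number 1, triangles for sample number 2 and a bar for the mean and SD of 4 libraries. Spironolactone values come from the table of spironolactone and vehicle and were normalized apart from the others. Itga10 is at 848 or more with aldosterone and at 415 or less elsewhere, whereas Itga2, Itga11 and Itga1 are lowest there.

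The bases just upstream of the start of the 3 collagen-binding genes that differed most, and of Itga5, are shown because these members moved together in one treatment but in opposite directions. They come from RefSeq (GRCm38.p6), 250 bases upstream of the annotated start, read 5′ to 3′ on the strand of the gene. The windows are chr3:96645334-96645583 (plus strand) for Itga10, chr13:114932101-114932350 (minus strand) for Itga2, chr9:62677605-62677854 (plus strand) for Itga11 and chr15:103366792-103367041 (minus strand) for Itga5. Capitals mark AGAACA, the core of a site for steroid receptors, and GGGCGG, the GC box, on either strand.
Itga10: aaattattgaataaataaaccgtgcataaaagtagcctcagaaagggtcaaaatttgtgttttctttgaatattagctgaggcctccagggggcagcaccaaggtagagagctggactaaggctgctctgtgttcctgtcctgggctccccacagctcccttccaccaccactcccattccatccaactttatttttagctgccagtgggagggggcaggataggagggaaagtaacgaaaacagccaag
Itga2: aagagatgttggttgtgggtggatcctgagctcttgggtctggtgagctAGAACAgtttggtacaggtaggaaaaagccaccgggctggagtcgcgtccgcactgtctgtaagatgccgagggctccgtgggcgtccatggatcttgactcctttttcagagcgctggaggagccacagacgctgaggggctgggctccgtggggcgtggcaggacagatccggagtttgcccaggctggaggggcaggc
Itga11: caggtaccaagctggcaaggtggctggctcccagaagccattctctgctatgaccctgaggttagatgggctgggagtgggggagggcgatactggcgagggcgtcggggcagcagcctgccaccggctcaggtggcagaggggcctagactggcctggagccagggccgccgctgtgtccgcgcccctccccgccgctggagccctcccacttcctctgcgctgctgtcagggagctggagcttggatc
Itga5: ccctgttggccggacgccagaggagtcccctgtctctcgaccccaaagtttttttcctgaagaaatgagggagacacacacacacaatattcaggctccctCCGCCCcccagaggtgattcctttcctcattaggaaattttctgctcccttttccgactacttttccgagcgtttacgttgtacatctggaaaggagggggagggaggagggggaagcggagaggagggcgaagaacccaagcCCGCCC
Itga2 held 1 AGAACA and Itga5 held 2 GC boxes, while Itga10 and Itga11 held neither. Of the 46 members, 29 had such a window. AGAACA was found for 5 of these (Itga2, Itgb1, Itgb7, Itgax and Cdh23) and in 16.1% of all 32851 windows, and GGGCGG was found for 10 members and in 32.7% of windows. The full palindrome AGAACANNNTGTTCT, which contains AGAACA, was found for 0 members and in 3 windows, or 0.00913%. The G and C content of the shown windows was 48.0% for Itga10, 60.8% for Itga2, 68.4% for Itga11 and 55.6% for Itga5, against a median of 52.4% over all windows. A match is a description of letters, and no match says only that these letters are not in the window.

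Among the RGD-binding alpha subunits, which recognize fibronectin, vitronectin and related proteins, 2 rose and 1 fell of 4. The shares of all genes were 5.68% and 4.74%. Itga5, the fibronectin receptor subunit, rose. Normalized counts were 16175, 13640, 10809 and 10256 with aldosterone and 7227, 7556, 5705 and 6192 with vehicle. All aldosterone libraries exceeded all vehicle libraries, and sample number 1 was the higher one in both. The difference was 0.92 ± 0.12 (SE, adjusted p = 6.73e-05), or 1.89-fold. Itgav, which with several beta subunits binds vitronectin and latent TGF-β, fell from 7714, 8066, 6806 and 7044 with vehicle to 6348, 6196, 5590 and 5521 with aldosterone (-0.32 ± 0.066, adjusted p = 0.00374). The gap between its groups was narrow, and leaving out aldosterone 2_1 or 2_2 or vehicle 1_1 or 1_2 raised the adjusted p to 0.0574 to 0.0678. With all libraries and the sample number as a block it was 1.03e-07.

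Itga8, a receptor subunit for nephronectin and other RGD proteins, rose by 0.39 ± 0.089 (adjusted p = 0.00759). Its normalized counts were 850, 689, 668 and 644 with aldosterone and 586, 561, 510 and 503 with vehicle. The groups did not overlap, but the adjusted p was 0.0599 to 0.0913 without aldosterone 1_2 or 2_1 or without vehicle 1_2, 2_1 or 2_2. Itga2b, the platelet subunit, had 129, 126, 136 and 145 with aldosterone and 83.9, 105, 133 and 114 with vehicle, and was not called (0.31 ± 0.15, adjusted p = 0.233). Per kilobase, the ratio of Itga5 to Itgav was 1.96 ± 0.105 in vehicle and 4.65 ± 0.68 in aldosterone libraries (SD, n = 4 each). The lowest ratio with aldosterone was 4.05 and the highest with vehicle was 2.04.

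Of the 3 laminin-binding alpha subunits, 1 rose and 1 fell, beside 5.68% and 4.74% of all genes. Itga3 rose, with normalized counts of 1345, 1217, 1256 and 1199 with aldosterone and 784, 790, 854 and 924 with vehicle (0.58 ± 0.068, adjusted p = 1.97e-05). Its groups were well separated. Itga7, the laminin receptor subunit that marks muscle cells, had 174, 160, 182 and 173 with aldosterone and 190, 249, 227 and 221 with vehicle. It fell by 0.35 on the log2 scale (SE 0.11, adjusted p = 0.0468), just inside the threshold. The call was lost on leaving out any 1 library except vehicle 1_1 (adjusted p 0.0802 to 0.128), with TMM scaling (0.0536), with edgeR without a count filter (0.0535) and with 5 added before the log (0.0578). The 9 measured myogenic markers summed to 238 to 488 with aldosterone and 547 to 799 with vehicle, Acta1 fell by 1.26 on the log2 scale (adjusted p = 0.000994), and their part in the Itga7 value was not tested. Itga6 had 469, 455, 584 and 578 with aldosterone and 490, 523, 671 and 664 with vehicle, which overlap (-0.17 ± 0.11, adjusted p = 0.466).

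Itga4, whose pairs bind fibronectin and Vcam1, rose. The libraries held 87.8, 81.9, 69.97 and 64.4 normalized counts with aldosterone and 30.2, 30.2, 31.7 and 48.3 with vehicle. Vehicle 2_2 stood above the other vehicle libraries but below all aldosterone libraries. The difference was 1.11 ± 0.21 (SE, adjusted p = 0.00226), with 1.46 within sample number 1 and 0.76 within sample number 2. Cerkl overlaps Itga4 on the opposite strand and averaged 15.6 reads against 49.7 for Itga4, and whether the counting used strand is not given in the sources used here. Itga9 of the same group was not called (-0.13 ± 0.073, adjusted p = 0.359). Of the 4 leukocyte alpha subunits, 0 were called, at adjusted p of at least 0.581, 0 of them at an unadjusted p under 0.05, and their differences ran from -0.62 to 0.28. These subunits were low, with vehicle means from 0.478 normalized counts for Itgax to 11.8 for Itgae, so the lack of calls says little about them.

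Of the 8 beta subunits, 1 was called (12.5%), beside 10 of the 17 alpha subunits (58.8%) and 10.4% of all genes. The contrast of alpha and beta subunits was not tested. At an unadjusted p under 0.05 there were 3 beta subunits, beside 20.9% of all genes. Itgb3, the partner of Itgav in the vitronectin receptor and of Itga2b in platelets, fell. It had normalized counts of 470, 396, 459 and 412 with aldosterone and 534, 566, 536 and 590 with vehicle (-0.36 ± 0.078, adjusted p = 0.00583). The groups did not overlap. Itgb1, the shared partner of most alpha subunits, had 36632, 35804, 33098 and 33834 with aldosterone and 33300, 33052, 30127 and 30318 with vehicle. Its groups overlapped, while within each sample number both aldosterone libraries were above both vehicle libraries, and the difference was 0.14 ± 0.063 (adjusted p = 0.225). With the sample number as a block the adjusted p was 0.00833 for the same difference. Itgb5, the partner of Itgav in another vitronectin receptor, had 8607 to 8998 with aldosterone and 8020 to 8622 with vehicle (0.068 ± 0.05, adjusted p = 0.503). The leukocyte subunit Itgb2 had at most 9.42 in any library of these treatments. The remaining 4, Itgb4, Itgb6, Itgb7 and Itgb8, were not called, and their differences ran from -1.41 for Itgb6 (SE 0.78, adjusted p = 0.345) to -0.017 for Itgb8. Of these, Itgb4 had 101 to 108 with aldosterone and 119 to 144 with vehicle, without overlap (-0.30 ± 0.13, adjusted p = 0.176).

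Among the type I classical cadherins, N-cadherin (Cdh2), the cadherin of many mesenchymal cells, rose. Normalized counts were 7147, 6641, 5879 and 6101 with aldosterone and 4170, 4010, 3810 and 3953 with vehicle. The groups were clearly apart, at a difference of 0.69 ± 0.063 (SE, adjusted p = 1.26e-06), or 1.61-fold. P-cadherin (Cdh3) had 381, 349, 227 and 218 with aldosterone and 523, 485, 377 and 415 with vehicle. It fell by 0.65 on the log2 scale (SE 0.16, adjusted p = 0.0147), although the groups overlapped, since both libraries of sample number 1 were higher than those of number 2 in each treatment. The call was lost on leaving out any 1 library except aldosterone 1_1 (adjusted p 0.0867 to 0.205). With all libraries and the sample number as a block the adjusted p was 4.36e-07. The epithelial cadherin Cdh1 had 8.39 to 22.0 in vehicle and 16.8 to 20.3 in aldosterone libraries (adjusted p = 0.481), and the muscle cadherin Cdh15 had 1.95 to 12.6 and 1.93 to 7.75 (adjusted p = 0.624).

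Of the 11 type II cadherins tested, 0 rose and 3 fell, beside 5.68% and 4.74% of all genes. The median log2 difference of the 11 was 0.018. Cdh11, per kilobase the most abundant cadherin in the vehicle libraries, fell. Its normalized counts were 7173, 7104, 9364 and 9578 with aldosterone and 10729, 10491, 13028 and 13623 with vehicle. The groups did not overlap, and sample number 2 was higher in each. The difference was -0.53 ± 0.11 (adjusted p = 0.00276), with -0.57 and -0.49 within sample numbers 1 and 2. Without aldosterone 1_1 or 1_2, or vehicle 1_1, 2_1 or 2_2, the adjusted p was 0.0577 to 0.099. With all libraries and the sample number as a block it was 2.31e-12. Cdh24 fell from 142, 155, 112 and 147 with vehicle to 89.1, 68.4, 73.7 and 80.8 with aldosterone (-0.82 ± 0.15, adjusted p = 0.00134), without overlap.

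Cdh8, a cadherin known mainly from the nervous system, was at 0 in all 4 aldosterone libraries and had 0.839, 4.88, 12.2 and 8.59 normalized counts, 24 reads in all, in the vehicle libraries. It was called lower (adjusted p = 0.00672), at least 8.92-fold against a floor of 3 reads over the aldosterone group. The call was lost without aldosterone 1_2, 2_1 or 2_2 or vehicle 1_2, 2_1 or 2_2 (adjusted p 0.0509 to 0.067). The endothelial cadherin Cdh5 had 12.9, 12.5, 15.7 and 19.6 with aldosterone and 16.8, 9.76, 6.10 and 5.37 with vehicle, which overlap (0.73 ± 0.41, adjusted p = 0.358). The 10 endothelial markers summed to 802 to 816 with aldosterone and 638 to 683 with vehicle, with Kdr higher by 1.88 (adjusted p = 0.00183) and Cldn5 and Tie1 near 0.

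Outside the classical groups, T-cadherin (Cdh13), which has no cytoplasmic tail and is held in the membrane by a lipid anchor, rose with the smallest adjusted p of all members. The libraries had 3919, 3950, 3634 and 3527 normalized counts with aldosterone and 1367, 1231, 1397 and 1379 with vehicle. The spread within a group was small beside the gap, and the difference was 1.48 ± 0.06 (SE, adjusted p = 7.15e-11), or 2.79-fold. Cdh13 lies at chr8:119010472-120051660 on the plus strand in the tables. Cdh17 rose from 199, 207, 229 and 205 with vehicle to 233, 263, 317 and 304 with aldosterone (0.40 ± 0.11, adjusted p = 0.0256). The groups were next to each other without overlap, and the call was lost on leaving out any 1 library except aldosterone 1_1 (adjusted p 0.0607 to 0.129).

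Per kilobase, Cdh11 made up 61.3% ± 3.79 of the summed cadherin level in vehicle and 41.2% ± 5.69 in aldosterone libraries, Cdh2 22.7% ± 2.27 and 35.4% ± 3.78, and Cdh13 5.48% ± 0.269 and 14.8% ± 1.24 (SD, n = 4 each). The ratio of Cdh2 to Cdh11 was 0.374 ± 0.0601 in vehicle and 0.882 ± 0.214 in aldosterone libraries. In aldosterone libraries 1_1 and 1_2 Cdh2 was the higher of both, at a ratio of up to 1.10, and in 2_1 and 2_2 it was the lower. The summed cadherin level was 2186 ± 159 in vehicle and 2259 ± 66.7 in aldosterone libraries.

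**Figure D3:**
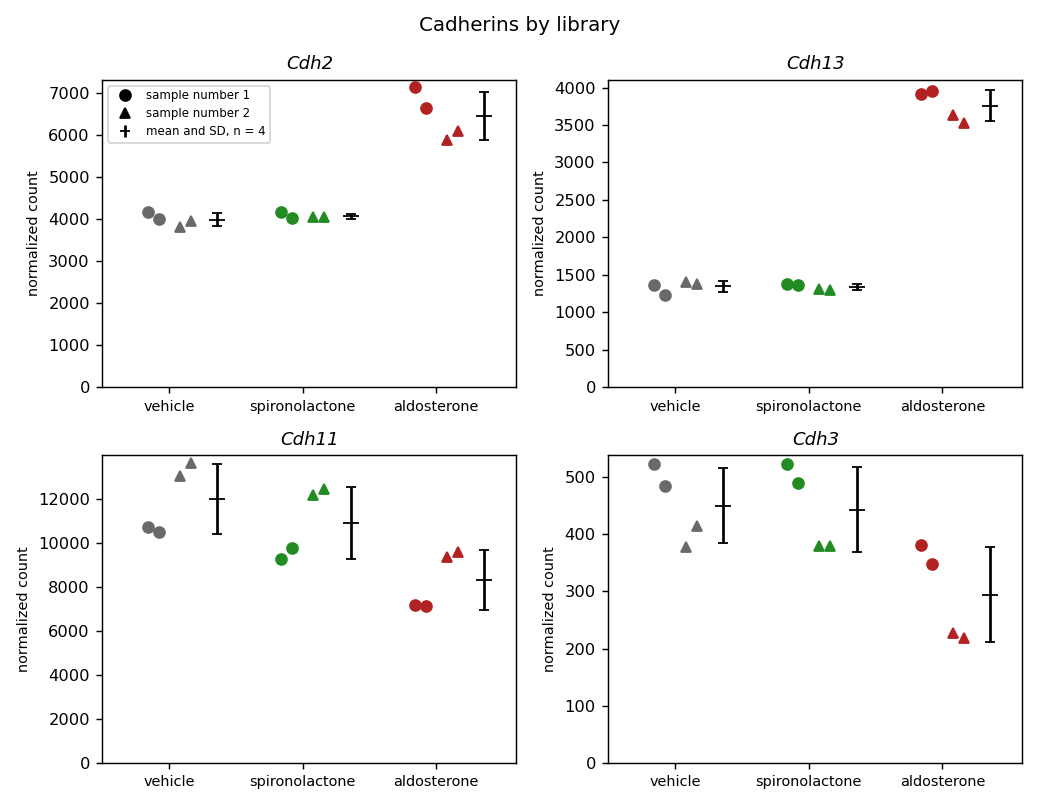
Normalized counts (y axis, from 0) of Cdh2, Cdh13, Cdh11 and Cdh3 in each library by treatment, with circles for sample number 1, triangles for sample number 2 and a bar for the mean and SD of 4 libraries. Spironolactone values were normalized apart, in the table with vehicle. Cdh13 lies at 3527 or more with aldosterone and at 1397 or less elsewhere, and Cdh11 and Cdh3 are split by sample number in every treatment.

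Levels can be ordered only per length. In vehicle libraries, normalized counts per kilobase were 7768 ± 419 for Itgb1 (SD, n = 4), 2354 ± 70.6 for Itgb5, 1352 ± 176 for Itga5, 1344 ± 179 for Cdh11, 689 ± 54.3 for Itgav, 671 ± 15.3 for Itga11 and 494 ± 18.4 for Cdh2. Itga5 and Cdh11, and likewise Itgav and Itga11, did not differ beyond the range of their libraries, while each of the other steps in this order was free of overlap. Itgb1 alone made up 49.0% ± 1.48 of the summed member level. With aldosterone the level was 2579 for Itga5, 933 for Cdh11, 799 for Cdh2, 371 for Itga11, 335 for Cdh13 and 255 for Itga10. Itga10 was at 57.3 in vehicle, between Itga6 at 64.2 and Cdh17 at 46.9, from which it did not differ beyond the spread. The summed alpha level was 3398 ± 189 in vehicle and 4379 ± 510 in aldosterone libraries, of which Itga5 made up 39.7% ± 3.02 and 58.4% ± 5.97.

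**Figure D4:**
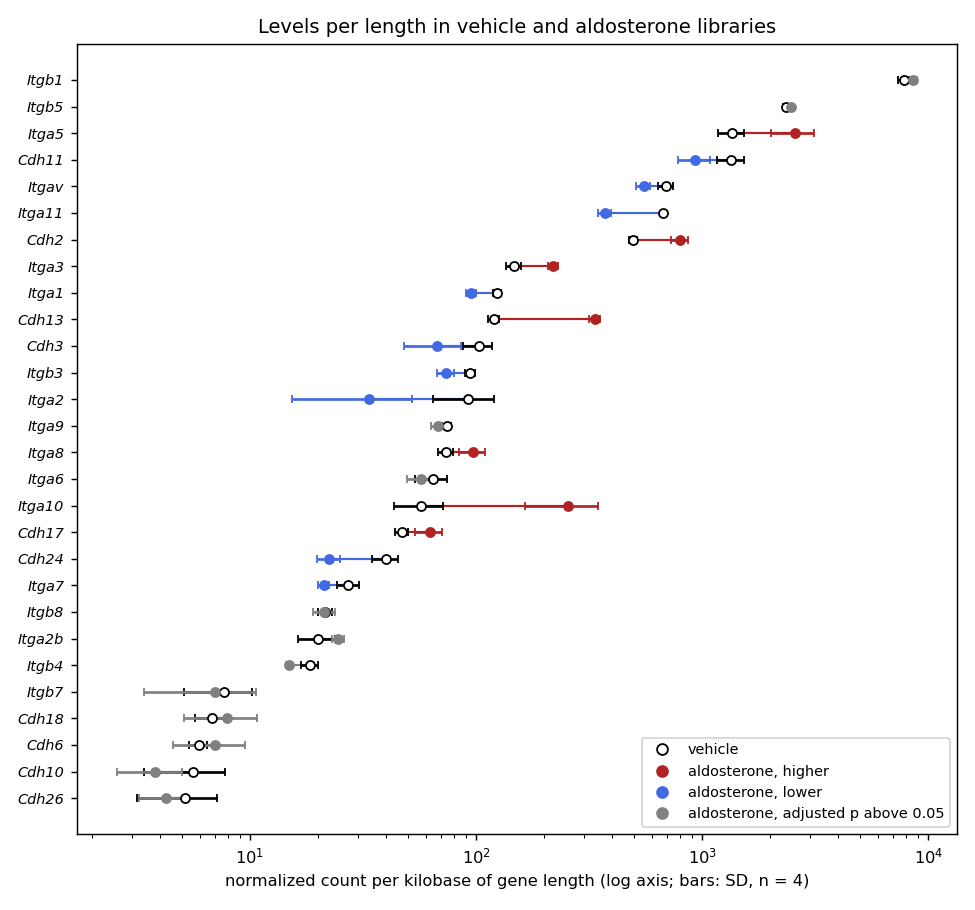
Normalized counts per kilobase of gene length (x axis, log scale) of the 28 members with at least 5 in vehicle, with open circles for vehicle, filled circles for aldosterone and bars for the SD of 4 libraries. Itgb1 is the highest at 7768 in vehicle, and Itga10 moves from 57.3 to 255.

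Aldosterone was also compared with spironolactone at the same dose and time, which asks whether the agonist and the antagonist leave different levels. 18 of 46 members (39.1%) differed, 7 higher and 11 lower with aldosterone, beside 8.88% of all genes of that table, 4.93% higher and 3.96% lower. The 7 were Itga10, Cdh13, Itga4, Itga5, Cdh2, Itga3 and Itga8. Cdh17, the other member that was higher against vehicle, had an adjusted p of 0.0876 (difference 0.32 ± 0.11), and 0.00946 with the sample number as a block. The 11 were the 10 that fell against vehicle, and Cdh10. Of the 33 members with a mean of at least 10, 17 were called, beside 15.2% of the 15300 genes with such a mean. Leaving out 1 library at a time kept 6 of the 7 higher calls throughout (Itga8 was lost, at an adjusted p of up to 0.0923) and 3 of the 11 lower ones (Cdh8, Itga1 and Itga11), with 3 to 8 lower calls in each fit. Cdh8 rests on 14 reads in all with spironolactone and 0 with aldosterone, and DESeq2 and edgeR after filtering gave no adjusted p for it. The comparisons with vehicle and with spironolactone share the 4 aldosterone libraries, so their values are given side by side and not as a replication.

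In spironolactone libraries the normalized counts of Itga10 were 273, 257, 411 and 415, taken from the table with vehicle. Aldosterone exceeded spironolactone by 1.94 ± 0.21 on the log2 scale (adjusted p = 4.05e-06), beside 2.11 against vehicle. Cdh13 had 1371, 1369, 1315 and 1294 with spironolactone, and the difference was 1.4999 ± 0.057 (adjusted p = 1.06e-11), beside 1.48. These libraries lay at the vehicle level for both genes. Itga2 had 508, 464, 768 and 820 with spironolactone (-1.54 ± 0.29, adjusted p = 0.00185). Itga11 had 3494, 3502, 3300 and 3200 (-0.82 ± 0.06, adjusted p = 4.26e-08). Itga5 had 7654, 6995, 6487 and 5927 (0.90 ± 0.11, adjusted p = 3.18e-05). None of these spironolactone libraries reached the range of the aldosterone libraries for those genes.

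Cdh2 had 4158, 4015, 4042 and 4053 with spironolactone, at a difference of 0.67 ± 0.062 (adjusted p = 7.65e-07). Cdh11 had 9260, 9740, 12168 and 12415, which overlapped with aldosterone (-0.38 ± 0.11, adjusted p = 0.0322). The smaller Cdh11 difference lost its call with edgeR after filtering (adjusted p = 0.0504) and with 5 added before the log (0.0521). The call was also lost on leaving out any 1 of the 8 libraries (0.127 to 0.311). With all of them and the sample number as a block the adjusted p was 3.29e-09. Cdh10, which is named here because it was the single addition and so was chosen after its values were seen, had 73.5, 67.6, 51.9 and 72.0 with spironolactone and 34.9, 55.9, 27.6 and 34.5 with aldosterone in the table with vehicle (-0.80 ± 0.23, adjusted p = 0.039). The groups overlapped slightly. This call was lost on leaving out any 1 library except aldosterone 1_2 (adjusted p 0.0747 to 0.182), with 5 added before the log (0.0619) and with all 12 libraries in 1 fit (0.0617). Against vehicle the difference was -0.52 ± 0.28 (adjusted p = 0.344). Itgb1 passed the threshold with the sample number as a block (0.12, adjusted p = 0.047, and 0.34 without it), but not when libraries were averaged per sample number under the same block (adjusted p = 0.154).

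Spironolactone alone was compared with vehicle to ask whether the antagonist moved these genes by itself. By limma 0 of the 45 members were called, and so were 0% of the 27598 genes, higher or lower. Without a block, edgeR and DESeq2 also called 0 members. At an unadjusted p under 0.05 there was 1 member, Itga3, and 4.53% of all genes. The median difference of the members was -0.015, beside 0.0026 over all genes. For Itga10 the difference was 0.18 with a 95% interval of -0.18 to 0.54. For Cdh13 it was -0.015 (-0.14 to 0.11), for Itga5 0.015 (-0.17 to 0.20), for Itga11 -0.039 (-0.15 to 0.069) and for Itga2 -0.039 (-0.44 to 0.36). These intervals exclude differences of the size seen with aldosterone for the same genes. Cdh11 was 0.15 lower on the log2 scale, at an adjusted p of 0.934 by limma and 0.0826 with the sample number as a block, while DESeq2 with that block called it lower (adjusted p = 0.00311), as did limma on the means per sample number (0.00037).

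The 2 sample numbers differed in members as well, a comparison added after seeing the data. In all 12 libraries with treatment in the fit, 10 of 45 members differed between sample numbers, beside 13.1% of 25133 genes. Sample number 2 was higher for Itga2 by 0.98 ± 0.085 on the log2 scale, for Itga10 by 0.72 ± 0.061, for Cdh11 by 0.37 ± 0.03, for Itga6 by 0.37 ± 0.049 and for Cdh19 by 0.96 ± 0.26. It was lower for Cdh10, Cdh3, Itga5, Itgav and Itgb1, by 0.13 for Itgb1 to 0.52 for Cdh10. Some of the members that differed with aldosterone thus also differed between the numbers, and Itga2 and Itga10 were both higher in number 2 while they moved apart with aldosterone. Whether the effect of aldosterone differed between the numbers was tested by an interaction term. It called 0 members (smallest adjusted p 0.317 against vehicle and 0.2 against spironolactone, both larger than the threshold) and 4 genes of each table.

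**Figure D5:**
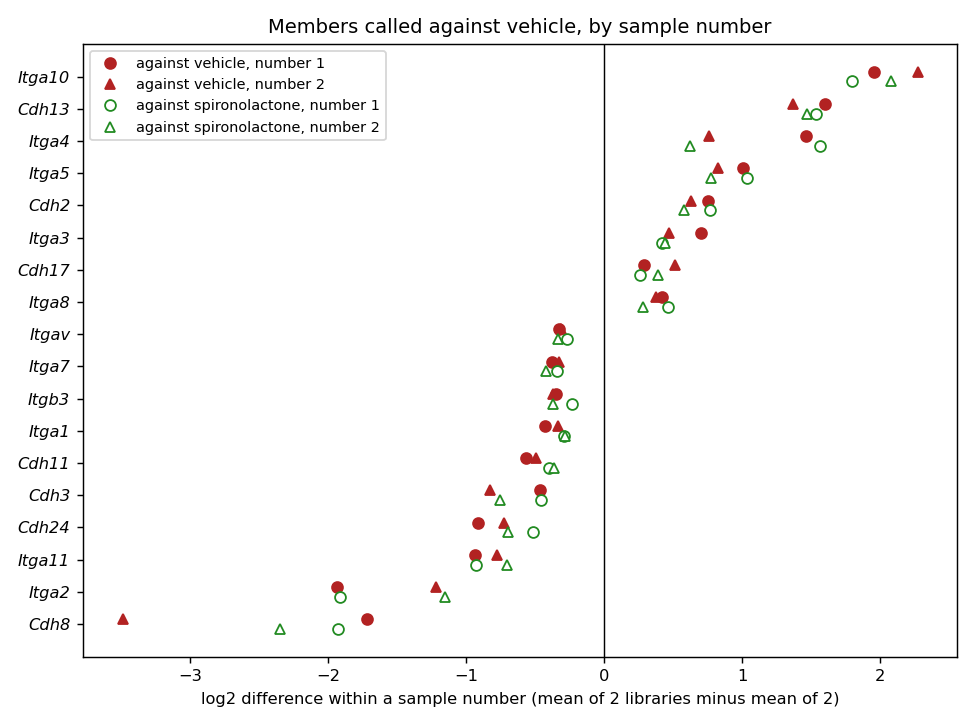
Log2 difference of aldosterone from vehicle (filled) and from spironolactone (open) within each sample number (x axis; circles number 1, triangles number 2) for the 18 members called against vehicle (y axis). Every point of a member lies on the same side of 0, and the numbers are furthest apart for Cdh8, from -1.72 to -3.49 against vehicle. Both comparisons share the aldosterone libraries.

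The partners of these receptors were read from lists. Of 27 integrin adaptors measured, 4 rose and 1 fell with aldosterone against vehicle, at a median difference of 0.031, beside 5.68% and 4.74% of all genes. With the sample number as a block 7 rose and 3 fell, beside 16.7% of all genes in either direction. In 26 of the 27 the mean was at least 10 normalized counts. Of all genes with such a mean, 9.65% rose and 8.09% fell without the block. Lims2, a partner of the integrin-linked kinase, rose by 1.44 ± 0.086 (adjusted p = 8.12e-09), Tns1 by 0.79 ± 0.065 and Tns2 by 0.52 ± 0.085, the latter tensins that link integrins to actin, and Tgfb1i1 fell by 0.21 on the log2 scale. Of 13 catenins and related proteins, 3 rose and 1 fell with or without the block, beside the same shares of all genes as the adaptors. These were Pkp1 (1.89 ± 0.15), Afdn (0.30 ± 0.054) and Ctnnb1 (0.28 ± 0.052), the last being the beta-catenin that binds classical cadherins, and Ctnna2, which fell by 1.39 on the log2 scale.

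Of 40 integrin ligands, 15 rose and 6 fell, at a median difference of 0.059, beside 5.68% and 4.74% of all genes. In 37 of the 40 the mean was at least 10 normalized counts. With the sample number as a block 18 rose and 11 fell, beside 16.7% of all genes in either direction. Fibronectin (Fn1), the ligand of Itga5 pairs, chosen after its values were seen, was among the 11 (-0.22, adjusted p = 0.0019 with the block and 0.202 without it). The laminin chains Lamc3 and Lama2 rose by 3.32 ± 0.37 (adjusted p = 1.06e-05) and 1.05 ± 0.081, and periostin (Postn), a matrix ligand of Itgav pairs, by 1.97 ± 0.097 (adjusted p = 6.76e-10). Icam1, a ligand of leukocyte integrins, fell by 0.75, fibulin 5 (Fbln5) by 0.69 and tenascin C (Tnc) by 0.67 on the log2 scale. Of 81 other members of the cadherin superfamily measured, chiefly protocadherins, 3 rose and 9 fell, beside 5.68% and 4.74% of all genes. With the block 3 rose and 17 fell, beside 16.7% of all genes in either direction. Pcdh1 was higher by 0.81 ± 0.14 and Pcdh9 by 0.72 ± 0.15, while Pcdh18 fell by 1.26 and Pcdh17 by 1.58 on the log2 scale. Against spironolactone the counts were 5 higher and 1 lower for adaptors, 3 and 0 for catenins, 15 and 6 for ligands and 3 and 5 for the other cadherins, beside 4.93% and 3.96% of all genes. With the block they were 6 and 4, 4 and 1, 20 and 9, and 3 and 12 in the same order, beside 14.4% of all genes in either direction. With spironolactone against vehicle 0 genes of these lists were called by limma without the block. With it 1 ligand was called higher, beside 0.351% of all genes in either direction.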

How the data were processed

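RNA-seq of 12 libraries, 4 per treatment, was read from 3 tables, each covering 2 treatments. In them the authors deposited a signal per gene and library, the read count divided by a size factor, so each table was normalized separately. The submitters' processing notes name HISAT2 2.0.5, featureCounts 1.5.0-p3 and mm39, whereas the methods of the study name another build, and the tables' positions are given as they stand. Whether counting used strand is not given in the sources used here. The log2 fold changes that the authors deposited, made with DESeq2 from the same counts, and their p-values were not used.

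Values were whole multiples of 1 read (100% of values, tolerance 1e-06), and reads were recovered from 22 of the 24 columns. Libraries held 19136923 to 30219185 reads. A count of 0 allows up to 3 reads, and such floors cover counting error only, since PCR reads are not independent molecules. limma 3.58.1 (R 4.3.3) was fitted with trend to log2(value + 1) of all genes of a table, with treatment alone, and p-values were adjusted over all genes by the Benjamini-Hochberg method. A call needed an adjusted p of at most 0.05. SEs and 95% intervals are from that fit, and folds are from its log2 differences and, for a gene at 0, also from the floor. Levels per kilobase used the gene length in the tables, and spironolactone values come from its table with vehicle.

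Libraries that share a sample number deviated together over 15276 genes (mean r 0.219, 0.134 to 0.283 over 24 pairs). For libraries that share a biological replicate number the mean r was -0.00547 (-0.302 to 0.283). The mean for different sample numbers (-0.219) adds nothing of its own, since deviations were taken from the group means. A fit with the sample number as a block was therefore run as well. The alternatives were edgeR 4.0.16 and DESeq2 1.42.0 on the recovered reads, other scalings, added values and filters, all libraries in 1 fit, means per sample number and each library left out. The fits were tested on simulated data. Values per library are given for members past both thresholds, for up to 12 further called members with a mean of at least 10, for the most abundant members and for markers of other cell types, and for each list up to 3 genes per direction. Itga6 and the members named beyond this were chosen after their values were seen. The members and lists were chosen with earlier results of these data known. A planned marker member was not analysed here. Tables were handled with pandas 2.3.3 in Python 3.11.15.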

Additional observations from a re-analysis of the deposited data

Results flagged for a closer look

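In the vehicle group, Itga4 had 48.3 normalized counts in library 2_2, where the other 3 libraries had 30.2 to 31.7. Itgb2, a leukocyte subunit, had 4.88 in vehicle 1_2 and 2.15 to 2.52 in the others. Both were set apart by the gap of 1 library from the rest of its group, relative to the range of the group, in 74 groups of 4 libraries looked at. Chance alone sets apart about 1 group in 20.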

How the results depend on the processing

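Requiring a log2 difference of at least 1 as well left 3 higher and 2 lower members for aldosterone against vehicle, and 3 higher and 2 lower against spironolactone. With any 1 library left out, the count against vehicle was 6 to 8 higher and 5 to 7 lower, in place of 8 and 10, and against spironolactone 6 to 8 higher and 3 to 8 lower, in place of 7 and 11. Against vehicle, 6 higher calls (Cdh13, Cdh2, Itga10, Itga3, Itga4 and Itga5) and 4 lower ones (Cdh24, Itga1, Itga11 and Itgb3) were kept whichever library was left out. Fewer libraries in a fit leave less precision, and the cause was otherwise not tested. Under the other 12 alternatives, only Itga7 lost its call against vehicle, and only Cdh10 and Cdh11 lost theirs against spironolactone, among members for which an adjusted p was given. DESeq2 gave none for Cdh8, whose mean was also under the filters on low values. With the replicate block on the sample number the counts were 9 higher and 10 lower against vehicle and 9 higher and 11 lower against spironolactone, the additions being Itgb1 in both and Cdh17 in the latter, and 0 for spironolactone against vehicle. When libraries were averaged per sample number under that block, the counts were 9 higher and 10 lower against vehicle and 9 higher and 12 lower against spironolactone. Against spironolactone this fit called Cdh17, Itga2b (0.37, adjusted p = 0.044) and Itgb6 in addition, and not Itgb1. The block on single libraries changed no other call among members, while over all genes it called 2371 higher and 2192 lower against vehicle, in place of 1553 and 1294. Against spironolactone it called 14.4% of all genes in place of 8.88%, and for spironolactone against vehicle 0.351% in place of 0%. For spironolactone against vehicle, 1 member, Cdh11, was called lower by DESeq2 with the block, and 1, again Cdh11, from means per sample number with the block. No difference that was called changed sign. The share of Itgb1 in the summed level per kilobase of vehicle libraries was 49.0%, and 50.2% and 47.7% in sample numbers 1 and 2. Of the low members, a change below the 3 reads that a count of 0 allows was not detectable at this depth.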
